A study of Callithrix jacchus with 20 samples.

Results

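The collagen genes of the common marmoset (*Callithrix jacchus*) were followed from induced pluripotent stem cells (cjiPSCs) to primordial germ cell-like cells (cjPGCLCs). The members were all rows of the count table whose symbol had the form COL, a type number, A and a chain number, which gave 44 of 25102 genes. They were placed in 9 classes by the structure that their proteins build. There were 11 fibril-forming chains, 10 fibril-associated chains (FACITs), 6 chains of type IV, 5 of type VI, 4 membrane-spanning collagens, 3 short-chain network collagens (types VIII and X), 2 multiplexins (types XV and XVIII), the anchoring fibril collagen type VII, and types XXVI and XXVIII, which were kept apart.

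Poly(A) RNA was sequenced from 20 libraries of 10 conditions with 2 biological replicates each, and all of them came from 1 line, DPZ_cjiPSC2, which had been reprogrammed from foetal fibroblasts. cjiPSCs were kept either in TESR, a commercial TeSR-E8 medium, or in cjPSCM, an N2B27-based medium with CHIR99021, A419259, IWR-1, vitamin C, LIF, TGFβ and FGF2. From each of these cultures, precursors of mesendoderm (pre-ME) were induced in aRB27 medium with CHIR and Y-27632, either with Activin A (ActA) or without it. The pre-ME of the cjPSCM cultures, with or without ActA, were then aggregated into embryoid bodies with BMP4, LIF, SCF, EGF and Y-27632, and on day 4 double-positive cells (cjPGCLCs) and double-negative cells (somatic cells) were sorted from them. The sample titles name INTa6 and EpCAM as the sort markers, other labels name CXCR4 and EpCAM, and the study's methods name INTα6 and CXCR4. Those titles also write cjEPSCM for the medium of these cells. The labels name a PicoPure or a Qiagen RNeasy Plus kit for RNA isolation, the study's methods add a NucleoSpin kit, and no source used here ties a kit to a library. All of these conditions share the line, so a difference between donors or clones cannot be seen here.

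Collagens are triple helices wound from 3 α chains, each a long run of glycine-led triplets. Fibril-forming types I, II, III, V and XI build the cables of connective tissue and cartilage, type IV forms the sheet of basement membranes on which epithelia rest, and type VI forms beaded filaments around mesenchymal cells. FACITs decorate fibrils, multiplexins are basement membrane proteoglycans, and the membrane-spanning collagens sit at the cell surface. In the early embryo type IV is among the first matrix proteins made, whereas fibril-forming and type VI collagens are typical products of mesenchyme.

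Levels are given as the counts that the authors normalised by size factors, 1 value per library, with replicate 1 before replicate 2. These values are not divided by transcript length, so a gene is compared with itself across conditions, and a ratio of counts between chains only with the same ratio in other libraries. Gene counts per library lay between 4784964 and 22067099. A library with 3 or fewer raw counts was taken to be at the floor, and floors cover counting error only. A collagen was called when edgeR's quasi-likelihood test gave a log2 fold change beyond 2 at an adjusted p under 0.05, and fold changes are given ± their standard error (SE). Of the 44 collagens, 41 passed the filter on low counts and were tested. *COL4A3*, *COL6A5* and *COL20A1* were not, and they were at the floor in 20, 13 and 16 of the 20 libraries. The 2 cjiPSC libraries in cjPSCM stood apart from each other, with an SD of 0.97 over genes for the log2 difference between replicates, against 0.63 for cjiPSCs in TESR and 0.32 to 0.58 in the other conditions. Of the 94 collagen calls over the 15 comparisons, 40 ended when 1 library was left out, and for calls given with a fold change this is stated with the gene. Bulk RNA cannot tell fewer cells of a type from less RNA per cell.

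**Figure D1:**
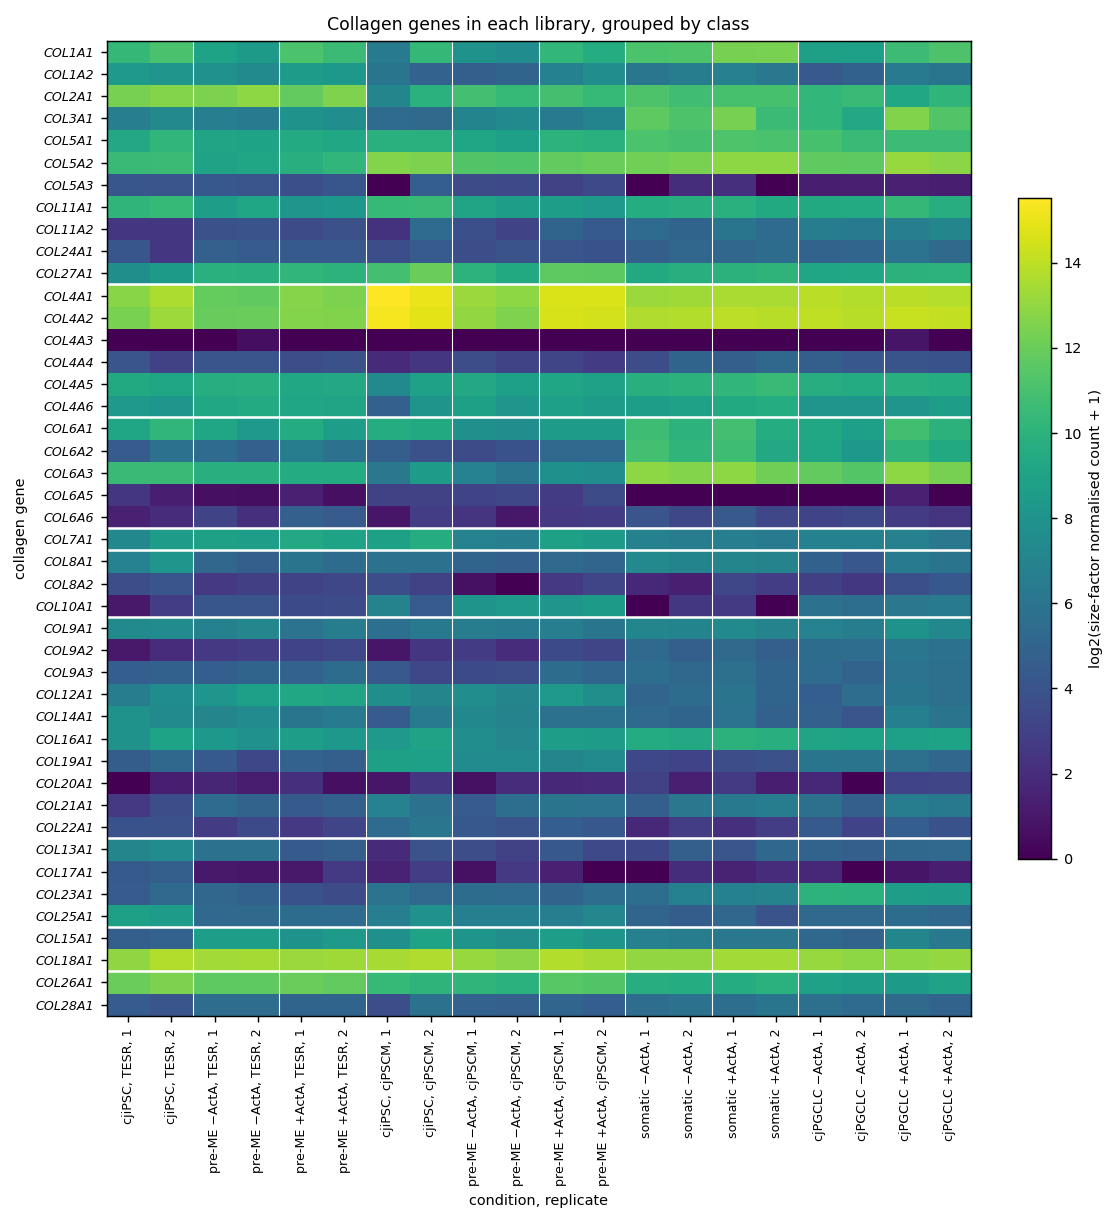
Level of each of the 44 collagens (rows, by class between white lines) in each of the 20 libraries (columns, 2 per condition), as log2(size-factor normalised count + 1). *COL6A2*, *COL6A3* and *COL3A1* are each brightest in the 8 libraries of sorted day 4 cells, *COL18A1* is bright in every library, and *COL4A3* is dark in all of them.

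First, the media were compared in cjiPSCs. In cjPSCM 9 of 41 collagens were called higher and 7 lower than in TESR, where 5.51% and 3.67% of the 15797 genes tested were called in these directions. The collagens called higher belonged to types IV (*COL4A1*, *COL4A2*), V, X, XI, XV, XIX, XXI and XXVII. Those called lower were *COL1A2*, *COL2A1*, *COL6A3*, *COL13A1*, *COL14A1*, *COL17A1* and *COL26A1*. The median log2 fold change of the 41 collagens was -0.01, and that of all genes tested was -0.00.

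Pre-ME were next compared with the cjiPSCs they came from. From TESR cultures, 5 collagens were called higher and 4 lower in pre-ME with ActA (background 4.44% and 2.53%). Without ActA, 3 were called higher and 3 lower (background 4.54% and 3.32%). Pre-ME from cjPSCM cultures with ActA had 1 collagen called higher, *COL10A1*, and 0 called lower (background 1.42% and 1.64%). In the cjPSCM cultures without ActA, 0 were called higher and 4 lower, the latter being *COL4A1*, *COL4A2*, *COL7A1* and *COL8A2* (background 2.11% and 3.16%). The counts in cjPSCM depended on single libraries. With ActA 7 collagens were called in all without cjPSCM cjiPSC replicate 2, 3 without its replicate 1, 2 without replicate 1 of pre-ME and 0 without replicate 2 of pre-ME. Without ActA the count of 4 became 8 without cjiPSC replicate 2 and 7 without replicate 1 of pre-ME. The median over collagens was -0.59 in the last comparison and 0.08 with ActA. It was -0.38 without and -0.06 with ActA in TESR, and over all genes it lay between -0.03 and 0.03 in these 4 comparisons.

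ActA itself was compared within pre-ME. From cjPSCM cultures, 3 collagens were called higher with ActA, *COL1A1*, *COL1A2* and *COL8A2*, and 0 lower (background 1.42% and 0.69%). At the adjusted p alone, 13 of 41 were higher and 1 lower. From TESR cultures, 1 collagen was called higher, *COL6A6*, and 0 lower (background 1.43% and 0.57%), and at the adjusted p alone 3 were higher and 2 lower. These background percentages, in both media, also use the log2 threshold. No share over all genes at the adjusted p alone is given here, so those counts cannot be read against a background. The median over collagens was 0.61 in cjPSCM and 0.23 in TESR, against -0.02 and 0.01 over all genes. The single call in TESR ended without replicate 2 of pre-ME lacking ActA or replicate 1 of pre-ME with it. Whether the effect of ActA differed between the media was tested as an interaction. edgeR called 0 collagens in either direction at the adjusted p (background 0.241% and 0.158%), 15 passed an unadjusted p of 0.05, DESeq2 called 4, and edgeR without the filter on low counts called 10. The background is that of the filtered edgeR fit, so the other counts have no share over all genes beside them. The unfiltered fit also took an infinite prior degrees of freedom.

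Then the day 4 cells were compared with the pre-ME of the same ActA condition. These comparisons share the pre-ME libraries between somatic cells and cjPGCLCs, and they span a change from adherent culture to sorted cells of an aggregate. Somatic cells had 5 collagens called higher and 7 lower with ActA (background 5.29% and 3.01%). Without ActA, 10 were called higher and 4 lower (background 4.99% and 2.96%). cjPGCLCs had 6 called higher and 4 lower with ActA (background 6.15% and 2.22%), and 7 and 4 without it (background 5.77% and 2.11%). The medians over collagens were 0.82 and 0.85 in somatic cells and 0.52 and 0.51 in cjPGCLCs, with and without ActA, and with the genes at the floor set to their bounds they were 0.81, 0.74, 0.52 and 0.51. Over all genes they lay between 0.00 and 0.04.

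Finally, sorted cells were compared with each other. With ActA, 1 collagen was called higher in cjPGCLCs than in somatic cells, *COL10A1*, and 0 lower (background 1.41% and 0.165%). The count was 0 without somatic replicate 2 and 2 without cjPGCLC replicate 2. Without ActA, *COL10A1*, *COL19A1* and *COL23A1* were called higher and *COL1A1* and *COL8A1* lower, 3 and 2 of 41 (background 2.39% and 0.449%). An interaction tested whether the sorting effect differed between the ActA conditions. edgeR called 0 collagens in either direction (background 0.0253% and 0.038%), 10 passed an unadjusted p of 0.05, DESeq2 called 2, and edgeR without the filter on low counts called 9. Here too the background is that of the filtered edgeR fit alone. Between cjPGCLCs from pre-ME with and without ActA, 1 collagen was called higher, *COL3A1*, and 0 lower (background 0.26% and 0.12%). That count was 2 without replicate 2 with ActA and 0 without any 1 of the other 3 libraries. Between somatic cells with and without ActA, 0 were called higher and 0 lower by edgeR (background 0.00633% and 0%), 2 passed an unadjusted p of 0.05, and DESeq2 called 0. In the other directions with 0 calls by edgeR, DESeq2 called 0 as well, except that it called 1 collagen higher in cjPSCM pre-ME without ActA against cjiPSCs. From 1 to 9 collagens had an unadjusted p under 0.05 in these directions. No share over all genes is given for the counts at an unadjusted p.

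**Figure D2:**
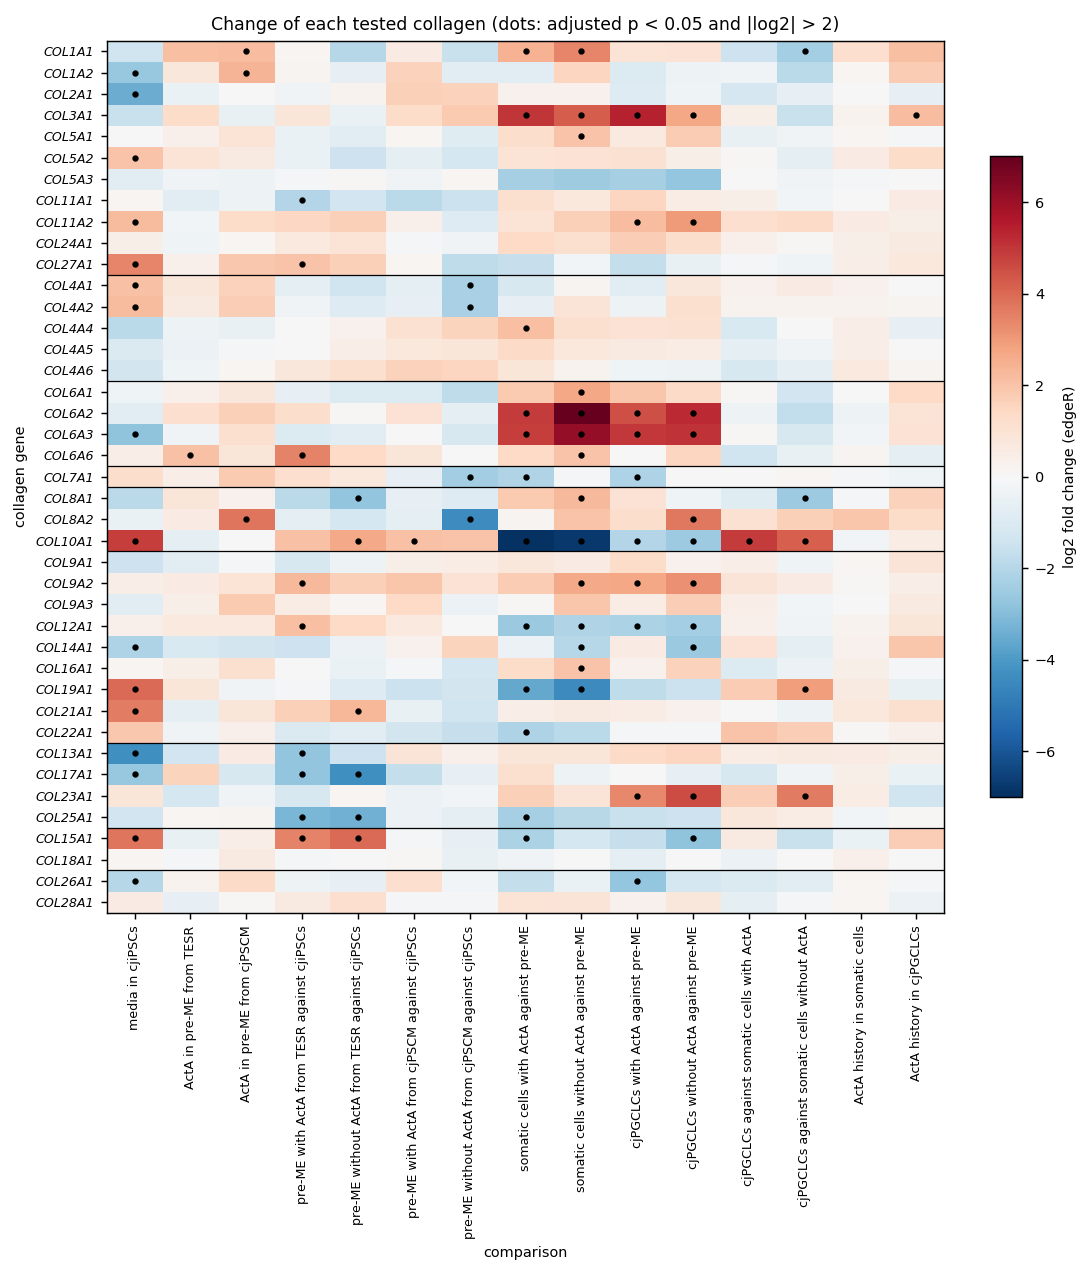
Log2 fold change (colour, edgeR) of the 41 tested collagens (rows, by class between black lines) in the 15 comparisons (columns); dots mark calls, a log2 fold change beyond 2 at an adjusted p under 0.05. *COL3A1*, *COL6A2* and *COL6A3* carry dots in all 4 comparisons of day 4 cells with pre-ME, and *COL10A1* carries dots of the opposite direction in the same 4.

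Type IV carried the largest change between media in total counts. The 6 type IV genes together had 13364 and 22873 normalised counts in cjiPSCs in TESR and 87957 and 65761 in cjPSCM, which was 0.118% and 0.179% of all gene counts in TESR and 0.655% and 0.561% in cjPSCM. Within the type IV total, nearly every count came from *COL4A1* and *COL4A2*, the chains of the ubiquitous basement membrane network. These 2 genes are neighbours in the RefSeq gene table and are known to be transcribed in opposite directions from a shared promoter. The summed endothelial markers moved in the same direction between media, through *CDH5* and *PECAM1*. The rest of the sum, from *KDR* and *TEK*, was not higher in cjPSCM. The study also counts *PECAM1* among genes of naïve and formative pluripotency. The 4 listed genes, none of them at the floor, summed to 7530.1 to 9139 in TESR and 14933 to 31407 in cjPSCM, with *CDH5* at 619 to 671 and 3403 to 11857 and *PECAM1* at 1565 to 1682 and 7096 to 12988. The 6 listed endoderm genes summed to 154 to 186 and 2249 to 2839, most of it *GATA6*, with *FOXA1*, *AFP* and *TTR* at the floor in both media. A list of 4 fibroblast genes was higher in cjPSCM too, at 161 to 190 in TESR and 1115 to 2067 in cjPSCM. Lists of mesoderm and mesenchyme and of amnion and trophoblast were lower in cjPSCM. The former had 1881 to 2204 in TESR and 416 to 734 in cjPSCM, and the latter 863 to 1365 and 440 to 694. The part of any such cells in the type IV levels was not tested.

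*COL4A1* had 6992 and 12353 normalised counts in cjiPSCs in TESR and 47304 and 34048 in cjPSCM. *COL4A2* had 5328 and 9650.4 in TESR and 40453 and 30972 in cjPSCM. In both genes the 2 cjPSCM libraries lay above the 2 TESR libraries. The log2 fold changes were 2.06 ± 0.22 (SE, adjusted p = 1.66e-06) for *COL4A1* and 2.24 ± 0.23 (SE, adjusted p = 1.10e-06) for *COL4A2*. Without TESR replicate 1 they were 1.72 and 1.89, and without cjPSCM replicate 1 that of *COL4A1* was 1.79, so these calls ended on the log2 threshold with adjusted p-values still under 0.05.

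In pre-ME from cjPSCM, the level of both chains moved with ActA. *COL4A1* had 9201 and 7595 without ActA and 26173 and 26217 with it, and *COL4A2* had 8395 and 5877 and 24360.1 and 22468. The 2 groups did not overlap. With against without ActA, *COL4A1* had a log2 fold change of 1.62 ± 0.21 (SE, adjusted p = 9.28e-05) and *COL4A2* a log2 fold change of 1.70 ± 0.22 (SE, adjusted p = 9.05e-05), both short of the log2 threshold. Against the cjiPSCs of the same medium, *COL4A1* fell by 2.24 and *COL4A2* by 2.29 on the log2 scale in pre-ME without ActA (adjusted p = 2.15e-06 and 2.67e-06), although the *COL4A1* value without cjPSCM replicate 1 was -1.97. With ActA the changes were -0.62 and -0.59 (adjusted p = 0.0494 and 0.0686). In TESR, where cjiPSCs started lower, pre-ME had 3724 and 3435 *COL4A1* counts without ActA and 6763 and 5741 with it, a log2 fold change of 0.80 ± 0.21 (SE, adjusted p = 0.0217).

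Sorted cells stood between these extremes. *COL4A1* had 9298 and 10248 in somatic cells without ActA, 12270.5 and 11957 in those with it, 15320.3 and 13557 in cjPGCLCs without ActA and 15494 and 14552 in those with it. The cjPGCLC libraries lay above the somatic ones in each ActA condition, with log2 differences of 0.58 ± 0.21 (SE, adjusted p = 0.0997) without and 0.32 ± 0.21 (SE, adjusted p = 0.541) with ActA, neither of which was called. Over the 10 conditions ordered by mean *COL4A1*, 6 of the 9 pairs of neighbours did not overlap. The order was set by the same values, and no share over all genes is given beside this count.

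The ratio of *COL4A1* to *COL4A2* raw counts within a library ranged over 0.705 to 1.31 in all 20 libraries, while *COL4A1* itself varied over 3435 to 47304 normalised counts. The ratio was 0.705 to 0.803 in somatic cells and 1.1 to 1.31 in cjiPSCs.

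*COL4A5* and *COL4A6*, neighbours on the X chromosome that code for the chains of a second type IV network, did not follow *COL4A1* and *COL4A2* between media. *COL4A5* had 694 and 575 in TESR cjiPSCs and 170.5 and 480.3 in cjPSCM, a log2 fold change of -1.03 ± 0.30 (SE, adjusted p = 0.0135). *COL4A6* had 334 and 287 and 26.4 and 256, a log2 fold change of -1.26 ± 0.52 (SE, adjusted p = 0.0668). The 2 cjPSCM replicates differed widely in both genes. Their highest means were in somatic cells with ActA, 1211 and 1431 for *COL4A5* and 689 and 768 for *COL4A6*. *COL4A4*, a chain of the kidney and lung network, had 2.83 to 37.3 normalised counts over all libraries. It was called higher in somatic cells with ActA (24.8 and 37.3) than in pre-ME (8.34 and 5.62), with a log2 fold change of 2.09 ± 0.50 (SE, adjusted p = 0.00242) that was 1.88 without replicate 2 of pre-ME and 1.75 without replicate 2 of the somatic cells.

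Type VI marked the sorted cells. Its genes together had 358 and 287 and 634 and 631 normalised counts in pre-ME from cjPSCM without and with ActA, and 11129 and 8585, 11063 and 6140.5, 4855 and 3415 and 10490.3 and 6963 in somatic cells without and with ActA and in cjPGCLCs without and with ActA. All 8 sorted libraries lay above all 12 libraries of cjiPSCs and pre-ME. The rise involved *COL6A2* and *COL6A3* more than *COL6A1*, the third chain of the classical type VI heterotrimer.

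*COL6A2* had 10.6 to 39.3 normalised counts in the 4 cjPSCM pre-ME libraries. It had 1928 and 1146 in somatic cells without ActA and 1694 and 665 with it. In cjPGCLCs it had 592 and 304 without and 1106 and 685 with ActA. The log2 fold changes against pre-ME were 6.96 ± 0.60 (SE, adjusted p = 1.91e-07) and 4.89 ± 0.53 (SE, adjusted p = 2.14e-06) in somatic cells without and with ActA, and 5.23 ± 0.60 (SE, adjusted p = 4.33e-06) and 4.52 ± 0.53 (SE, adjusted p = 4.58e-06) in cjPGCLCs. Every one of these calls held when each library was left out.

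*COL6A3*, the longest chain of type VI, had 68.4 to 224 in cjPSCM pre-ME, 7506 and 6383 and 7449 and 4675 in somatic cells without and with ActA, and 3632 and 2668 and 7549 and 5275 in cjPGCLCs. It rose by a log2 fold change of 6.16, 4.84, 5.04 and 4.93 in the same order, with adjusted p-values of 1.24e-07, 8.09e-07, 7.98e-07 and 7.29e-07. In cjiPSCs it was higher in TESR, at 1481 and 1437 against 72.5 and 374 in cjPSCM, a log2 fold change of -2.80 ± 0.45 (SE, adjusted p = 1.37e-04). The 2 cjPSCM replicates were far apart but both lay below TESR.

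*COL6A1* was present from the start, with 590.0 and 1212 in TESR cjiPSCs and 768 and 695 in cjPSCM. It had 218 and 195 in cjPSCM pre-ME without ActA and 1679 and 1046 in the somatic cells from them, a log2 fold change of 2.68 ± 0.44 (SE, adjusted p = 1.40e-04). In the other 3 comparisons of day 4 cells with pre-ME its log2 fold change was 1.85, 1.94 and 1.35, short of the log2 threshold, with adjusted p-values of 0.00192, 0.0013 and 0.0196. The count ratio of *COL6A2* to *COL6A1*, which are neighbours in the genome, was 0.0192 to 0.133 in the 12 libraries of cjiPSCs and pre-ME and 0.605 to 1.15 in the 8 sorted ones. *COL6A6*, 1 of the chains that can take the place of *COL6A3*, had 0.942 to 25.7. It was highest in TESR pre-ME with ActA (25.7 and 21.2), where raw counts were 47 and 40 against 15 and 7 without ActA. That call (log2 fold change of 2.04, adjusted p = 0.0136) ended without replicate 2 of pre-ME without ActA (adjusted p = 0.252) or replicate 1 with ActA (0.108), and DESeq2 did not make it.

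Markers of mesenchyme moved with the type VI genes. A list of 8 genes of mesoderm and mesenchyme summed to 416 to 2204 normalised counts in cjiPSC and pre-ME libraries, 15877 to 30044 in somatic cells and 14097 to 19023 in cjPGCLCs. A list of 4 fibroblast genes summed to 157 to 2067, 10957 to 16996 and 3339.6 to 8136, and 1 of these, *DCN*, is also in the fibril assembly list below. *FOXF1* was at the floor in 3 of the 4 sorted conditions, and *FAP* was at the floor in all conditions of cjiPSCs and pre-ME. The 5 amnion and trophoblast genes found in the table, of 6 listed, were higher in sum too, going from 440.3 to 1757 in cjiPSCs and pre-ME to 4861 to 7580.3 in all sorted cells, and *VTCN1* and *GABRP* were at the floor in the cjPSCM cultures before sorting. A list of 6 germ cell genes summed to 918 to 1649 in somatic cells, with *NANOS3* and *DPPA3* at the floor, and to 2157 to 3735 in cjPGCLCs. Of 6 pluripotency genes only *TDGF1* was at the floor in cjiPSCs, and there in cjPSCM alone. The part of cells other than germ cells in the cjPGCLC levels of type VI, and of type III below, was not tested.

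**Figure D3:**
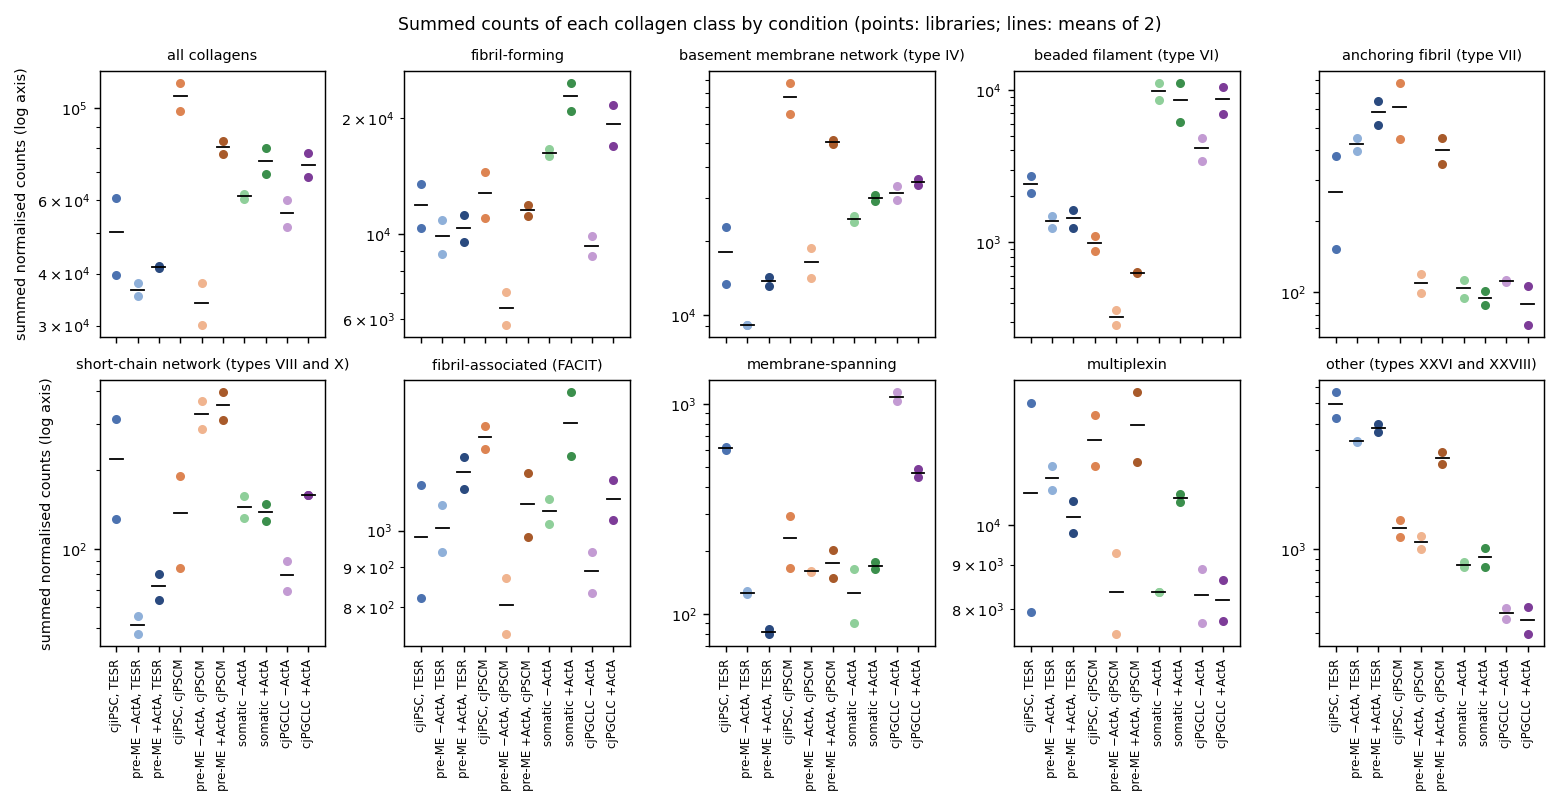
Summed normalised counts (log axis, its range set per panel) of all collagens and of each class in the 10 conditions; points are libraries and lines the means of 2. The type IV total reaches 87957 and 65761 in cjiPSCs in cjPSCM, and the type VI totals of the 8 sorted libraries lie above the other 12.

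Among the fibril-forming chains, *COL3A1* had the largest range. It codes for type III, the reticular fibre collagen of soft tissues. Its normalised counts were 127 and 166 in cjPSCM pre-ME without ActA and 81.8 and 126 with it. In somatic cells they were 3330.1 and 2378 and 5105 and 1559. In cjPGCLCs they were 1234 and 651 and 6119 and 2498. All 8 sorted libraries lay above the cjPSCM pre-ME libraries, and within the somatic cells and cjPGCLCs with ActA replicate 1 was well above replicate 2. The log2 fold changes were 4.26 ± 0.52 (SE, adjusted p = 7.78e-06) and 5.02 ± 0.55 (SE, adjusted p = 2.29e-06) in somatic cells, without and with ActA, and 2.69 ± 0.50 (SE, adjusted p = 4.32e-04) and 5.41 ± 0.56 (SE, adjusted p = 1.29e-06) in cjPGCLCs, and these 4 calls held without each library. Between cjPGCLCs with and without ActA the log2 fold change was 2.18 ± 0.46 (SE, adjusted p = 0.0177). This call ended without replicate 1 with ActA (log2 fold change of 1.39, adjusted p = 0.29), and without either replicate lacking ActA (2.73 and 1.80, adjusted p = 0.0636 and 0.194).

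Both chains of type I, the main collagen of bone, tendon and skin, were higher in pre-ME from cjPSCM with ActA. *COL1A1* had 248 and 188 without and 1228 and 769.6 with ActA, a log2 fold change of 2.17 ± 0.67 (SE, adjusted p = 0.0298), and *COL1A2* had 25.3 and 31.7 and 113 and 192, a log2 fold change of 2.39 ± 0.35 (SE, adjusted p = 2.67e-04). The *COL1A1* call ended without replicate 1 with ActA (1.79, adjusted p = 0.202) and without either replicate lacking ActA (adjusted p = 0.0959 and 0.173), and that of *COL1A2* fell to 1.98 without replicate 2 with ActA. In TESR pre-ME the levels of *COL1A1* were 522 and 353 without and 2236 and 1515 with ActA, a log2 fold change of 2.10 ± 0.64 (SE, adjusted p = 0.0513).

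In somatic cells the 2 type I chains parted. *COL1A1* had 2285 and 2469 without ActA and 5294 and 5502 with it, a log2 fold change against pre-ME of 3.41 ± 0.69 (SE, adjusted p = 8.65e-04) and 2.42 ± 0.65 (SE, adjusted p = 0.00552). The second value had an adjusted p of 0.0592 without replicate 2 of pre-ME. *COL1A2* had 66.9 and 94.4 and 108 and 73, with log2 fold changes of 1.51 ± 0.38 (SE, adjusted p = 0.00467) and -0.75 ± 0.34 (SE, adjusted p = 0.077). In a library, the raw counts of *COL1A1* were 2.02 to 5.85 times those of *COL1A2* in TESR pre-ME, 4 to 10.9 times in cjPSCM pre-ME, 26.2 to 75.3 times in somatic cells and 16.4 to 35.4 times in cjPGCLCs. The 2 cjPSCM cjiPSC libraries had ratios as far apart as 1.33 to 45.8. In cjPGCLCs without ActA *COL1A1* had 460.2 and 438, a log2 fold change of -2.39 ± 0.66 (SE, adjusted p = 0.0293) against somatic cells, and this call ended without any 1 of the 4 libraries (adjusted p = 0.0934 to 0.177).

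*COL1A2* was lower in cjPSCM than in TESR cjiPSCs, at 65 and 28.2 against 323 and 278, a log2 fold change of -2.65 ± 0.34 (SE, adjusted p = 1.34e-05). *COL1A1* had 86.7 and 1291 in cjPSCM, so that the replicates differed more than the media, against 1306 and 2179.9 in TESR.

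*COL2A1*, the cartilage and notochord collagen, was high in TESR cultures. It had 5154 and 6315 in cjiPSCs and 3592 to 7689 in pre-ME of that medium. In cjPSCM cjiPSCs it had 141 and 952, a log2 fold change of -3.45 ± 0.55 (SE, adjusted p = 1.24e-04). Both cjPSCM libraries lay below both TESR libraries, and the call held without each library. *COL2A1* in cjPSCM pre-ME lay at 1360.2 to 1965 and in sorted cells at 633 to 2292.

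Type V chains start fibril growth and are built into type I fibrils. *COL5A2* was 1383 and 1553 in TESR cjiPSCs and 6447 and 5589.9 in cjPSCM, a log2 fold change of 2.02 ± 0.16 (SE, adjusted p = 1.09e-07), and this was 1.95 without TESR replicate 1 and 1.90 without cjPSCM replicate 1. It was highest in cjPGCLCs with ActA, at 9009 and 7223, against 3443 and 3245 without. The difference of 1.28 ± 0.16 (SE, adjusted p = 5.87e-04) was short of the log2 threshold. In the order of means over the 10 conditions, 8 of 9 pairs of neighbours did not overlap. The order was set by these same values, and no share over all genes is given for this count. *COL5A1* moved less, with 427 to 2456 over all libraries. It was 585 and 427 in cjPSCM pre-ME without ActA and 2221 and 1993 in the somatic cells from them, a log2 fold change of 2.02 ± 0.22 (SE, adjusted p = 2.46e-06) that was 1.83 without replicate 2 of pre-ME and 1.95 without replicate 1 of the somatic cells. *COL5A3* was low throughout, at 0 to 23.7.

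Of the other fibril-forming genes, *COL27A1* codes for a cartilage collagen and differed between media in cjiPSCs. It had 212 and 359 in TESR and 1924 and 4151 in cjPSCM cjiPSCs, a log2 fold change of 3.42 ± 0.30 (SE, adjusted p = 2.45e-07). In pre-ME without ActA the media overlapped, at 909 and 852 from TESR and 1043 and 690 from cjPSCM. In pre-ME with ActA from TESR it had 1175 and 1061, a log2 fold change of 2.02 ± 0.29 (SE, adjusted p = 6.57e-05) against cjiPSCs, which was 1.67 without TESR cjiPSC replicate 1 and 1.94 without replicate 1 of pre-ME. DESeq2 did not call it. *COL11A1*, a partner of type II in cartilage fibrils, fell in the same comparison from 1145 and 1367 to 279.7 and 310.5, a log2 fold change of -2.07 ± 0.21 (SE, adjusted p = 2.85e-06), which was -1.96 without TESR cjiPSC replicate 2. *COL11A2*, the second chain of type XI, rose in cjPGCLCs from 13 and 7.93 in pre-ME to 91.1 and 85.1 without ActA, and from 31.7 and 19.7 to 101 and 141 with it. The log2 fold changes were 3.01 ± 0.57 (SE, adjusted p = 5.72e-04) and 2.18 ± 0.53 (SE, adjusted p = 0.00292). The second was 1.92 without replicate 2 of pre-ME and 1.93 without replicate 2 of the cjPGCLCs. In cjiPSCs the call of *COL11A2* between media, a log2 fold change of 2.19 ± 0.77 (SE, adjusted p = 0.0346) chosen after it was seen, did not hold without single libraries. The levels were 4.41 and 4.47 in TESR and 3.77 and 43 in cjPSCM. Without replicate 2 of cjPSCM the value was -0.24 (adjusted p = 0.844), and without TESR replicate 1 or 2 the adjusted p was 0.195 and 0.0717. *COL24A1* stayed at 4.47 to 58.3 in all libraries and was called in no comparison.

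**Figure D4:**
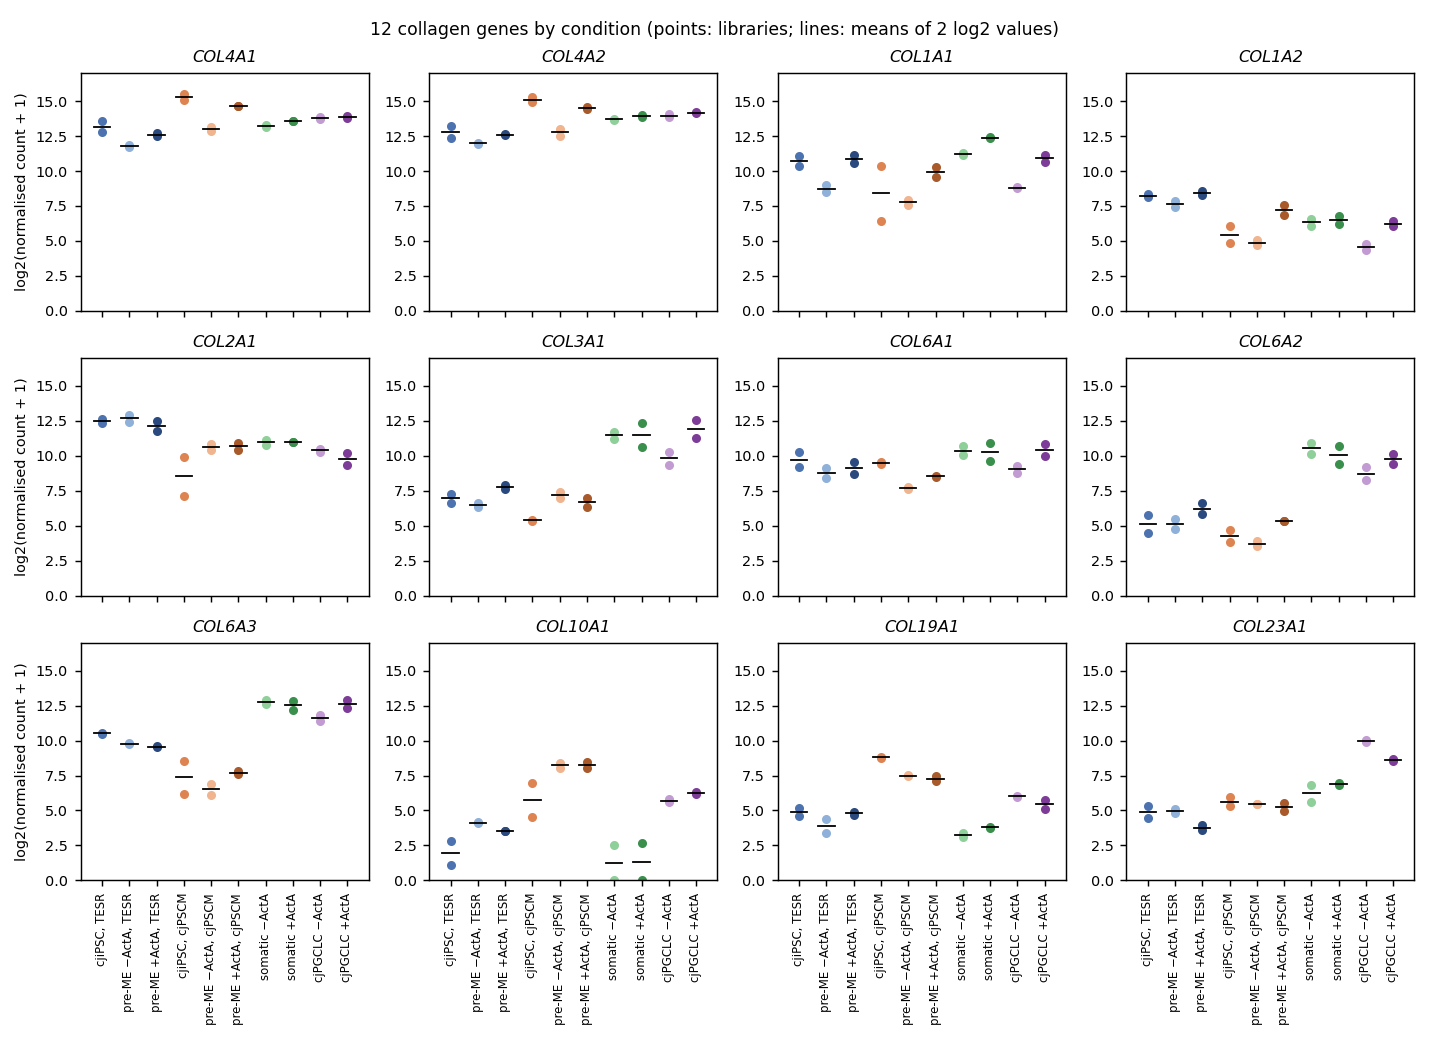
Log2(normalised count + 1) of 12 collagens in the 10 conditions on 1 common scale; points are libraries and lines the means of 2. *COL4A1* and *COL4A2* are highest in cjiPSCs in cjPSCM, *COL3A1*, *COL6A2* and *COL6A3* in sorted cells and *COL23A1* in cjPGCLCs, and *COL10A1* is at the floor of 3 counts in the 4 somatic libraries.

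Short-chain collagens form hexagonal lattices, type X in hypertrophic cartilage and type VIII below endothelia. *COL10A1* ranged from the floor in somatic cells to 256 to 357 normalised counts in cjPSCM pre-ME. Its raw counts in cjiPSCs were 2 and 4 in TESR and 131 and 15 in cjPSCM, so that its media difference (4.85 on the log2 scale, adjusted p = 1.63e-04) starts from few reads. In pre-ME from cjPSCM its normalised counts were 256 and 343 without ActA and 268 and 357 with it. Against cjiPSCs the value with ActA was 2.03 ± 0.49 (SE, adjusted p = 0.00813), and this call ended without cjPSCM cjiPSC replicate 2 (1.33) or replicate 2 of pre-ME (1.83, adjusted p = 0.0604).

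In somatic cells *COL10A1* was at the floor in every library, with raw counts of 0 and 3 without ActA and 3 and 0 with it. It was therefore at least 51.8-fold lower than in pre-ME without ActA and at least 63.8-fold lower with ActA (adjusted p = 8.89e-06 and 5.17e-06), reckoned against 3 counts per library. cjPGCLCs kept part of the signal, with 55.4 and 47.3 and 70.1 and 79.6. They lay below pre-ME, by a log2 fold change of -2.54 ± 0.50 (SE, adjusted p = 7.78e-04) and -2.06 ± 0.49 (SE, adjusted p = 0.00241), and at least 8.89-fold and 15.3-fold above somatic cells (adjusted p = 0.0109 and 0.00469). The decline with ActA was 1.84 without replicate 2 of pre-ME and 1.96 without replicate 1 of the cjPGCLCs. The difference from somatic cells lost its adjusted p without somatic replicate 2 with ActA (0.115), and without somatic replicate 1 or 2 or cjPGCLC replicate 1 in the absence of ActA (0.0986, 0.0666 and 0.0623).

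*COL8A1* was 157 and 125 in somatic cells without ActA and 27.3 and 17.3 in the matching cjPGCLCs, a log2 fold change of -2.56 ± 0.39 (SE, adjusted p = 3.75e-04) that held without each library. It had fallen in TESR cultures from 117 and 290.4 in cjiPSCs to 33.5 and 24.8 in pre-ME without ActA, a log2 fold change of -2.76 ± 0.35 (SE, adjusted p = 2.37e-05). *COL8A2* was scarce, with raw counts of 1 and 0 in cjPSCM pre-ME without ActA and 6 and 6 with it, at least 2.83-fold higher with ActA (adjusted p = 0.00555), a call that DESeq2 did not make. *COL7A1*, the anchoring fibril of skin, had 449 and 777 in cjPSCM cjiPSCs and 119.7 and 99.1 in pre-ME without ActA, a log2 fold change of -2.43 ± 0.33 (SE, adjusted p = 4.78e-05). With ActA it had 452 and 351, and the day 4 cells from them lay at 72.5 to 106. The changes of *COL7A1* from pre-ME with ActA were -2.10 ± 0.36 (SE, adjusted p = 1.49e-04) in somatic cells and -2.15 ± 0.34 (SE, adjusted p = 8.99e-05) in cjPGCLCs. The former was -1.90 without replicate 1 of pre-ME, and the latter -1.95 without replicate 1 of pre-ME and -1.93 without replicate 2 of the cjPGCLCs.

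FACITs sit on the surface of fibrils. *COL19A1*, a rare collagen of basement membrane zones and developing muscle, had 23.1 and 35.7 in TESR and 462 and 436 in cjPSCM cjiPSCs, a log2 fold change of 3.98 ± 0.30 (SE, adjusted p = 4.37e-08) that held without each library. It was 183 and 176 and 139 and 171 in cjPSCM pre-ME without and with ActA, and 9.22 and 7.74 and 12.4 and 13.4 in somatic cells, which was a log2 fold change of -4.44 ± 0.39 (SE, adjusted p = 2.45e-07) and -3.57 ± 0.36 (SE, adjusted p = 9.51e-07). cjPGCLCs stood between, at 64.6 and 61.5 and 53.2 and 34.1. They were above somatic cells by 2.92 ± 0.43 (SE, adjusted p = 2.62e-04) without ActA. *COL21A1*, a FACIT of vessel walls, rose with cjPSCM from 4.96 and 11.9 to 119 and 53.4, a log2 fold change of 3.56 ± 0.60 (SE, adjusted p = 2.06e-04).

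*COL12A1*, which binds type I fibrils in tendon and ligament, was lower in sorted cells than in pre-ME in all 4 comparisons. Its levels were 196 and 132 and 333 and 206 in pre-ME, 32.3 and 44.9 and 62 and 31.3 in somatic cells and 23.5 and 45.7 and 65.9 and 51.2 in cjPGCLCs, without and with ActA. The log2 fold changes were -2.09, -2.57, -2.36 and -2.19 (adjusted p = 0.00157, 1.48e-04, 4.36e-04 and 2.93e-04). Leaving out 1 library brought 3 of these inside the log2 threshold, to -1.77 at the least, while all stayed past the adjusted p, and the call in somatic cells with ActA held. *COL14A1*, a FACIT of dense connective tissue, fell from 152 and 119.9 in pre-ME without ActA to 26.6 and 15.8 in cjPGCLCs, a log2 fold change of -2.62 ± 0.49 (SE, adjusted p = 4.65e-04). *COL9A2*, a chain of the type IX cartilage FACIT, rose in cjPGCLCs to 44.8 and 45.7 and 66.8 and 55.5, with log2 fold changes of 3.22 ± 0.44 (SE, adjusted p = 2.88e-05) and 2.70 ± 0.42 (SE, adjusted p = 6.40e-05). In somatic cells *COL9A2* had 39.2 and 24.8 without and 40.7 and 25.3 with ActA. The rise without ActA was called, at a log2 fold change of 2.67, and held without each library. The other chains of type IX, *COL9A1* (49.9 to 244) and *COL9A3* (8.89 to 59.2), were called in no comparison. Without ActA, *COL9A3* had at most 11.9 in pre-ME, 48.4 and 37.1 in somatic cells and 41.8 and 29.9 in cjPGCLCs. With ActA, its somatic levels overlapped those of pre-ME. *COL9A1* with ActA had 98.5 and 64.6 in pre-ME and 244 and 154 in cjPGCLCs. *COL16A1* reached 1011 and 894 in somatic cells with ActA. *COL22A1* had 2.31 to 66.7 over all libraries and was called lower in somatic cells with ActA (3.54 and 5.96) than in pre-ME (24.2 and 18.3), with a log2 fold change of -2.14 ± 0.63 (SE, adjusted p = 0.0102) whose adjusted p was 0.0719 without replicate 1 of pre-ME and 0.0767 without replicate 1 of the somatic cells.

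Of the membrane-spanning collagens, *COL23A1* was highest in cjPGCLCs. It had 43.6 and 42.6 in cjPSCM pre-ME without ActA, 48.4 and 111 in somatic cells and 1066 and 966 in cjPGCLCs. With ActA the values were 30.0 and 46.3, 112 and 122 and 404 and 371. Both cjPGCLC groups lay above all 16 other libraries, which had 11.1 to 122. Against pre-ME the log2 fold changes were 4.54 ± 0.30 (SE, adjusted p = 1.33e-08) and 3.39 ± 0.31 (SE, adjusted p = 4.33e-07). Against somatic cells without ActA it was 3.63 ± 0.30 (SE, adjusted p = 1.06e-06), and these 3 calls held without each library. With ActA the log2 fold change against somatic cells, a value chosen after it was seen, was 1.74 ± 0.28 (SE, adjusted p = 0.00147). The difference between the ActA conditions was not called in the interaction (adjusted p = 0.101). Of the endoderm markers, *FOXA2* and *HNF4A* were also highest in cjPGCLCs, and higher without than with ActA. *FOXA2* had 356 to 518 in cjPGCLCs without and 83.9 to 192 with ActA and was at the floor in somatic cells, and *HNF4A* had 446 to 835 and 131 to 418 against 1.55 to 9.22 and 5.96 to 8.85. The whole list of 6 summed to 2089 to 3799.5 in cjPGCLCs and 1975 to 3152 in somatic cells. It had no gene at the floor in cjPGCLCs, and in somatic cells 4 were, *FOXA1*, *FOXA2*, *AFP* and *TTR*. Nearly all of the somatic sum was thus *GATA6*, which did not share the pattern of *FOXA2* and *HNF4A*. The 6 listed germ cell genes summed to 3580 to 3735 in cjPGCLCs without and 2157 to 2305 with ActA. In somatic cells these germ cell sums were 918 to 1199 without and 1363 to 1649 with ActA. They were 1860 to 3026 in cjPSCM cjiPSCs, where *COL23A1* had 60.3 and 38.5. The parts of endoderm cells and of germ cells in the *COL23A1* level were not tested.

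The other 3 membrane-spanning genes were highest in TESR cjiPSCs. *COL13A1*, found at focal contacts and the neuromuscular junction, had 132 and 180.2 in TESR and 2.83 and 14.8 in cjPSCM, a log2 fold change of -4.31 ± 0.52 (SE, adjusted p = 7.69e-06). *COL25A1*, a collagen of neurons, fell from 452 and 360.3 in cjiPSCs to 37.9 and 40.7 and 44.9 and 43 in TESR pre-ME without and with ActA, by log2 fold changes of -3.36 ± 0.33 (SE, adjusted p = 1.84e-06) and -3.20 ± 0.33 (SE, adjusted p = 3.11e-06). *COL17A1*, part of hemidesmosomes in stratified epithelium, had 37 and 17 raw counts in TESR cjiPSCs and 2 and 2 in pre-ME without ActA, where it was at least 15-fold lower (adjusted p = 4.74e-04). The calls of *COL13A1* and *COL25A1* held without each library.

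The 2 multiplexins behaved differently. *COL18A1*, the precursor of endostatin, was called in no comparison and stayed at 7283 to 13807 normalised counts in all 20 libraries. *COL15A1*, its relative in muscle and vessel basement membranes, had 24.8 and 28.3 in TESR cjiPSCs against 219 and 513 in cjPSCM, a log2 fold change of 3.76 ± 0.39 (SE, adjusted p = 1.31e-06). It rose in TESR pre-ME to 409 and 404 and 247 and 327 without and with ActA, by log2 fold changes of 3.97 ± 0.38 (SE, adjusted p = 1.30e-06) and 3.46 ± 0.38 (SE, adjusted p = 5.62e-06). In cjPGCLCs without ActA it fell from 264 and 202 in pre-ME to 34.9 and 29.9, a log2 fold change of -2.83 ± 0.38 (SE, adjusted p = 2.23e-05). These 4 calls held without each library.

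*COL26A1*, whose protein is known from testis and ovary, was highest in TESR cjiPSCs and lowest in cjPGCLCs. It had 4227 and 5648 in TESR cjiPSCs and 1375 and 1088 in cjPSCM. The log2 fold change of -2.02 ± 0.18 (SE, adjusted p = 2.92e-07), chosen after its values were seen, was -1.81 without TESR replicate 2 and -1.85 without cjPSCM replicate 2, and neither DESeq2 nor edgeR with DESeq2 size factors called it. In cjPSCM pre-ME it had 1133 and 984 without and 2892 and 2543 with ActA, so the pre-ME with ActA lay above the cjiPSCs of the same medium. It then had 470.1 and 424 in cjPGCLCs without ActA and 352 and 499 in those with it, and the latter step from pre-ME was a log2 fold change of -2.68 ± 0.19 (SE, adjusted p = 2.29e-08). *COL28A1*, a collagen of peripheral nerve, stayed at 12.2 to 64.1.

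Other calls also ended when 1 library was left out. Between media, *COL14A1* had 251 and 162 in TESR and 20.7 and 78.6 in cjPSCM, a log2 fold change of -2.19 ± 0.45 (SE, adjusted p = 0.0012) that was -1.80 without TESR replicate 1 and -1.46 without cjPSCM replicate 1. *COL17A1*, with 37 and 17 raw counts in TESR and 2 and 4 in cjPSCM, had an adjusted p of 0.106 without cjPSCM replicate 1, and DESeq2 did not call it. Against TESR cjiPSCs, *COL12A1* rose in pre-ME with ActA from 90.3 and 188 to 597 and 529, a log2 fold change of 2.09 ± 0.37 (SE, adjusted p = 4.09e-04) that was 1.61 without cjiPSC replicate 1 and 1.99 without replicate 1 of pre-ME. The calls of *COL9A2*, *COL10A1* and *COL21A1* in TESR pre-ME rested on low counts in cjiPSCs. *COL9A2* had 2 and 2 raw counts there and 14 and 17 with ActA, and its adjusted p was 0.18 without cjiPSC replicate 1. *COL10A1* had 31 and 34 without ActA and *COL21A1* had 9 and 8 in cjiPSCs and 76 and 65 without ActA, and without cjiPSC replicate 1 their adjusted p-values were 0.346 and 0.135. That of *COL10A1* was also 0.0762 and 0.0728 without replicate 1 or 2 of pre-ME. Calls of *COL17A1* in TESR pre-ME with ActA, of *COL15A1* and *COL25A1* in somatic cells with ActA, of *COL6A6*, *COL14A1* and *COL16A1* in somatic cells without ActA and of *COL8A2* in cjPGCLCs without ActA ended without at least 1 library too.

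**Figure D5:**
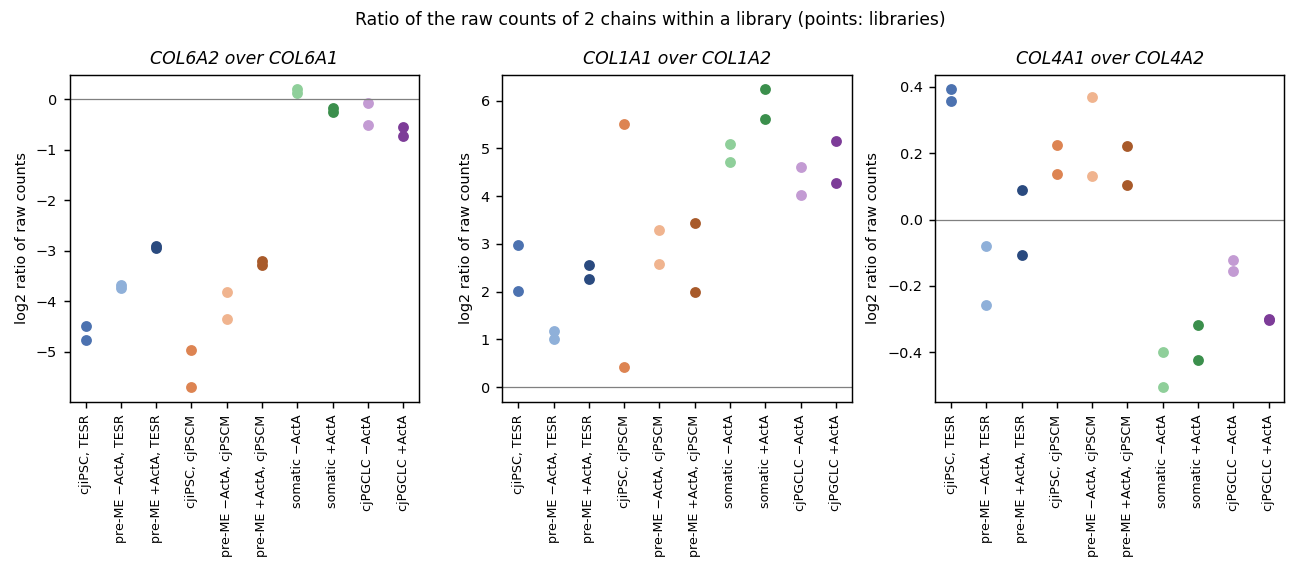
Log2 ratio of the raw counts of 2 chains of the same collagen type within each library (points) in the 10 conditions, for types VI, I and IV; the grey line marks equal counts. The *COL6A2* to *COL6A1* ratio steps up from at most 0.133 in cjiPSCs and pre-ME to at least 0.605 in sorted cells, and the *COL4A1* to *COL4A2* ratio stays between 0.705 and 1.31.

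The genes that fold, export, process and bind collagens were counted over 7 lists. Of 19 genes of hydroxylation and folding, at most 1 was called in either direction in any of the 15 comparisons. With ActA in TESR pre-ME *P4HA3* was called higher and *P3H2* lower (background 1.43% and 0.57%), and the *P4HA3* call ended without replicate 1 with ActA (adjusted p = 0.0508). *SERPINH1*, the collagen chaperone HSP47, had 24853 to 36434 normalised counts in cjPSCM cjiPSCs, 14195 to 15356 in pre-ME without ActA and 23783 to 24086 with it. The ActA effect was 0.68 ± 0.19 (SE, adjusted p = 0.0181), short of the log2 threshold. *P4HA1*, a chain of prolyl 4-hydroxylase, was past the adjusted p in none of the 15 comparisons. *PLOD2*, which hydroxylates lysines of collagen telopeptides, was higher in cjPSCM than in TESR cjiPSCs by 0.75 ± 0.20 (SE, adjusted p = 0.00664). Export of procollagen from the endoplasmic reticulum was represented by 10 genes, whose median log2 fold change lay between -0.38 and 0.36 over the 15 comparisons.

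Of 7 cross-linking genes, *LOX* and *LOXL4* were called higher with ActA in TESR pre-ME (background 1.43%) and *LOXL4* in cjPSCM pre-ME (background 1.42%), and 0 were called lower in either. The *LOXL4* call ended in TESR without replicate 2 lacking ActA or replicate 1 with it (adjusted p = 0.124 and 0.0986). In cjPSCM it ended without replicate 2 with ActA or either replicate lacking it (0.106, 0.119 and 0.0732). *LOX*, the enzyme that cross-links fibrillar collagen, was called between media. It had 321 to 398 in TESR cjiPSCs and 1192 to 2956 in cjPSCM, a log2 fold change of 2.53 ± 0.34 (SE, adjusted p = 2.05e-05) that was 1.71 without cjPSCM replicate 1. In TESR pre-ME it had 133 to 226 without ActA and 3239 to 5056 with it, a log2 fold change of 4.52 ± 0.36 (SE, adjusted p = 8.17e-07). In cjPSCM pre-ME the ActA effect was 0.90 ± 0.32 (SE, adjusted p = 0.0533), and the interaction with the medium had a log2 value of 3.62 (adjusted p = 0.00402). *LOX* then fell in sorted cells, to 82 to 94.6 and 122 to 131 in somatic cells and 140.3 to 166 and 198 to 243 in cjPGCLCs, without and with ActA. Against pre-ME its log2 fold changes were -3.23, -3.59, -2.39 and -2.78 (adjusted p = 8.10e-06, 1.44e-06, 5.53e-05 and 8.92e-06), so *LOX* fell in the comparisons in which *COL3A1*, *COL6A2* and *COL6A3* rose.

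Of the 15 tested genes of propeptide processing and fibril assembly, 4 were called higher and 1 lower in somatic cells with ActA against pre-ME (background 5.29% and 3.01%) and 7 and 1 without ActA (background 4.99% and 2.96%). In cjPGCLCs 4 and 1 were called with ActA (background 6.15% and 2.22%), and 4 and 1 without it (background 5.77% and 2.11%). Of these calls, *BGN* and *TLL2* in somatic cells and *TLL2* in cjPGCLCs, all without ActA, ended without 1 library. *PCOLCE*, which speeds the trimming of procollagen, was called in all 4 of these, with log2 fold changes of 5.65, 5.36, 3.97 and 4.80 in somatic cells and cjPGCLCs, without and with ActA (adjusted p = 2.95e-08, 1.10e-07, 1.79e-06 and 3.73e-07). *DCN*, decorin, a proteoglycan that coats fibrils, rose by 4.28 and 4.54 in somatic cells, without and with ActA, and by 2.46 and 3.55 in cjPGCLCs. Among the 9 tested collagen receptors, *DDR2*, a receptor tyrosine kinase for fibrillar collagen, was called higher in the same 4 comparisons, by log2 fold changes of 5.32, 6.01, 3.46 and 5.79. *PCOLCE* and *DDR2* had both been called lower in cjPSCM than in TESR cjiPSCs, by -5.22 ± 0.48 (SE, adjusted p = 3.67e-07) and -5.51 ± 0.60 (SE, adjusted p = 2.43e-06). Of 13 partners of type IV in basement membranes, 3 were called higher and 0 lower in each comparison of day 4 cells with pre-ME except that of somatic cells without ActA, which had 2, where the background was the 4.99% to 6.15% and 2.11% to 3.01% given above. *FREM1* and *SMOC2* were called in all 4, although *SMOC2* in cjPGCLCs with ActA had a log2 fold change of 1.95 without replicate 2 of pre-ME. Of the 15 tested genes of collagen degradation, 4 were called higher and 1 lower in cjPSCM against TESR cjiPSCs (background 5.51% and 3.67%), among them the collagenase *MMP13* by 3.64 ± 0.40 (SE, adjusted p = 2.57e-06). The call of *TIMP4*, the 1 called lower, ended without replicate 1 of either medium (adjusted p = 0.187 and 0.103).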

How the data were processed

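Poly(A) RNA-seq of 20 libraries was analysed from 2 deposited tables. The first holds raw counts per gene that the authors made with HTSeq 0.11 after mapping to calJac4 with STAR 2.7.0a. The second holds a signal that the authors obtained by dividing these counts by DESeq2 size factors. The annotation release and the strand setting of the counting are not given in the sources used here, so overlapping and antisense genes are uncertain, and *COL4A1*/*COL4A2*, *COL4A5*/*COL4A6* and *COL6A1*/*COL6A2* are neighbours. Reads in no feature came to 10.6% to 23.2% of a library's total and were left out of library sizes, as were ambiguous reads. This share was 10.6% and 13.3% in TESR cjiPSCs and 12.2% and 19.3% in cjPSCM cjiPSCs. In the other conditions it was 17.2% to 23.2%. Comparisons of pre-ME with cjiPSCs thus also differ in this share, and its part in the fold changes was not tested. Gene counts ranged from 4784964 to 22067099.

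Raw counts were fitted with edgeR 4.0.16 (R 4.3.3) with TMM factors, filterByExpr and the quasi-likelihood F-test, 1 coefficient per condition over all 20 libraries (10 residual degrees of freedom), and p-values were adjusted by Benjamini-Hochberg over the 15797 of 25102 genes tested. Pairs of conditions were called at a log2 fold change beyond 2 with an adjusted p under 0.05, interactions at the adjusted p alone. The fit was tested on simulated data. Standard errors are the log2 fold change divided by the square root of F. With 2 libraries per condition, p-values measure the spread between these samples only. Libraries are called biological replicates by the study, but no source ties the replicate numbers of different conditions to a shared culture.

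Every collagen could be named with its levels. Fold changes were given for 14 collagens fixed by name and for the 6 called collagens with the largest change in each direction whose replicates did not overlap. For genes that act on collagens, the 3 called with the largest change per list were eligible, with *SERPINH1*, *P4HA1*, *PLOD2* and *LOX* always. The members and gene lists were chosen with earlier results of these data known. Alternatives were DESeq2 1.42.0, its size factors in the edgeR fit, no filter on low counts, a replicate block, the adjusted p without a fold threshold, and leaving out each library. Sequences and transcript lengths were not used here.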

Additional observations from a re-analysis of the deposited data

Results flagged for a closer look

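For 5 collagens, pre-ME libraries of the ActA condition named moved one way against cjiPSCs in TESR and the opposite way in cjPSCM. None of them did so in the other ActA condition. Both ActA conditions were searched, and no share over all genes is given for this count. The difference between the media was not tested. *COL27A1* without ActA had a log2 fold change of 1.67 (edgeR, adjusted p = 0.000293) in TESR and of -1.76 (adjusted p = 0.000151) in cjPSCM. *COL21A1* without ActA had 2.31 (adjusted p = 0.0076) in TESR and -1.38 (adjusted p = 0.0333) in cjPSCM. For *COL7A1* without ActA the values were 0.74 (adjusted p = 0.074) and -2.43 (adjusted p = 4.78e-05). For *COL26A1* with ActA they were -0.36 (adjusted p = 0.112) and 1.15 (adjusted p = 0.000267). *COL9A1* without ActA had -0.38 (adjusted p = 0.31) and 0.52 (adjusted p = 0.204), neither past the threshold. *COL27A1*, *COL21A1* and *COL26A1* were already called between media in cjiPSCs. The cjiPSC levels of the others did not overlap between media either. *COL7A1* had 153 and 380 in TESR and 449 and 777 in cjPSCM, and *COL9A1* had 161 and 179 and 49.9 and 77.1. The 2 cjPSCM cjiPSC libraries on which the cjPSCM fold changes rest stood apart from each other.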

How the results depend on the processing

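Of the 141 fold changes that the naming rule gave past the adjusted p of edgeR, none changed direction under any alternative run. That of *COL11A2* between media, outside the rule, turned from 2.19 to -0.24 without cjPSCM replicate 2. All 141 stayed past it with DESeq2 size factors in place of TMM, without the filter on low counts and with the replicate block. DESeq2 gave 135 of 140 past its own adjusted p. Over 564 fits without 1 library, 452 stayed past it and 112, from 51 of the results, did not. The calls of collagens were less stable: 54 of 94 held without each library, and 10 ended under at least 1 other planned setting. The counts depended on the fold threshold, and those at the adjusted p alone have no share over all genes beside them. At the adjusted p alone they were 5 for ActA in TESR pre-ME (in place of 1) and 14 in cjPSCM (3). For pre-ME against cjiPSCs with and without ActA they were 17 and 19 in TESR (9 and 6), and 11 and 20 in cjPSCM (1 and 4). Against pre-ME they were 27 and 24 in somatic cells (12 and 14), and 26 and 22 in cjPGCLCs (10 and 11). Between cjPGCLCs and somatic cells they were 5 and 11 (1 and 5), and 6 between cjPGCLCs with and without ActA (1). DESeq2 gave 0 for ActA in TESR pre-ME, 4 for the interaction of ActA and medium and 2 for that of sort and ActA. Without the filter on low counts, ActA in TESR pre-ME, cjPGCLCs against somatic cells with ActA, and cjPGCLCs with against without ActA each had 2, and the interactions had 10 and 9. That fit also took an infinite prior degrees of freedom, against 6.53 with the filter.

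Leaving out 1 library moved the counts over 0 to 1 for ActA in TESR pre-ME, 0 to 7 and 5 to 8 for pre-ME from cjPSCM with and without ActA, 0 to 2 for cjPGCLCs against somatic cells with ActA and 0 to 2 for cjPGCLCs with against without ActA.

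Replicate numbers were shared between conditions, and the correlation of same-numbered deviations was -0.19 to 0.229, so they were taken as a number only. The replicate block gave 3 calls for cjPSCM pre-ME with ActA against cjiPSCs (in place of 1) and 1 for the interaction of sort and ActA (0). A crossed pairing, added after seeing the data because of correlations of -0.133, -0.19 and -0.115 in 3 comparisons, gave 2 in the former.

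A floor of 3 counts stood for a CPM of 0.136 to 0.627 over the libraries, and lower levels were not detectable at this depth.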
